A study of Mus musculus with 6 samples.

Results

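Elac2 and 6 genes that work beside it at the ends of transfer RNAs were followed in mouse hearts in which Elac2 had been deleted. The genes were chosen by name, with earlier results of these data known: Elac2, Elac1, Trmt10c, Hsd17b10, Trnt1, Ptcd1 and Ptcd2. They are 7 of 51888 rows of the count tables, and all 7 were among the 14302 rows with enough reads to be tested. The knockout mice (titled L/L, cre, and given as Elac2 -/-) carried an Elac2 gene with 1 exon between loxP sites and a cre recombinase driven by the muscle creatine kinase promoter. The controls (titled L/L, and given as Elac2 +/+ elsewhere in the labels) had no cre in their labels, so cre and the loss of Elac2 cannot be told apart. Both groups were on a C57BL/6 background with 3 mice each, the labels do not give their age, and total RNA of the heart was sequenced from paired-end TruSeq libraries. The promoter is active in striated muscle cells, and the other cell types of the heart are not its target. Each mouse gave 1 library after 4 technical replicates, and the L/L, cre libraries held 9850100 to 14461110 counts, against 12057962 to 14276410 in the L/L libraries.

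Transfer RNAs are made as precursors with extra sequence at both ends. RNase P cuts the 5' end, RNase Z cuts the 3' end, and a nucleotidyltransferase then adds the CCA tail that carries the amino acid. In mitochondria the same cuts also free the messenger and ribosomal RNAs, because transfer RNAs lie between them on long polycistronic transcripts. Mammals have a long RNase Z, ELAC2, which works in the nucleus and in mitochondria, and a short one, ELAC1, which works in the cytosol. Mitochondrial RNase P contains no RNA and is built of the proteins TRMT10C, HSD17B10 and PRORP.

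Of the 7 genes, Trnt1 and Trmt10c rose, Elac2 and Ptcd2 fell, and Elac1, Hsd17b10 and Ptcd1 did not pass the test (edgeR quasi-likelihood test over all genes, adjusted p under 0.05). The share called, 4 of 7, stood beside 36.5% of all tested genes, of which 18.7% were higher and 17.8% lower. The levels of the groups did not overlap for the same 4 genes, and they did not overlap for 50.6% of all tested genes (26.2% higher and 24.5% lower in L/L, cre). Levels below are CPM, counts per 1000000 counts of the library size scaled by TMM, a method that sets the bulk of genes to no change. Scaled by library size alone, the median log2 fold change of all tested genes was 0.68, against -0.01 with TMM, and Elac1 and Ptcd2 then turned positive. Changes are therefore relative to the bulk of genes. Mitochondrial-encoded features took 33.3% to 36.7% of counts in the L/L, cre libraries and 49.3% to 61.1% in the L/L libraries, and 9 of 13 of them were lower and 1 higher.

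The cell makeup of the tissue was followed by marker lists, none of whose genes was at 0 in all libraries. The summed level of 10 cardiomyocyte markers was 64027 to 64785 CPM in the L/L, cre hearts and 93966 to 96568 CPM in the L/L hearts, with 5 of 10 lower. Ckm, the muscle creatine kinase gene whose promoter drove cre, was among them, at 274 CPM in L/L, cre and 954 CPM in L/L hearts on average (log2 fold change -1.80, edgeR adjusted p = 4.73e-05). Endothelial markers summed to 539 to 665 CPM in L/L, cre and 729 to 810 CPM in L/L hearts, with 4 of 10 lower, and smooth muscle and pericyte markers to 731 to 762 CPM in L/L, cre and 1251 to 1510 CPM in L/L hearts, with 4 of 10 lower and 1 higher. Fibroblast markers summed to 1774 to 3040 CPM in L/L, cre and 1220 to 1808 CPM in L/L hearts, with 1 of 10 higher. Macrophage markers summed to 234 to 272 CPM in L/L, cre and 224 to 243 CPM in L/L hearts, also with 1 of 10 higher, and 7 erythroid markers to 1440 to 2942 CPM in L/L, cre and 522 to 1795 CPM in L/L hearts, with 1 higher. Of all tested genes, 18.7% were higher and 17.8% lower in the same fit. The counts of marker calls were not stable. With 1 library left out, calls over all tested genes also moved, from 1899 to 2903 higher and from 1795 to 2934 lower. The lower cardiomyocyte markers numbered 4 without replicate 2 or 3 of either group and with the replicate number as a block. They numbered 6 without L/L, cre replicate 1 and 7 with DESeq2. For smooth muscle and pericytes, 3 markers were lower without replicate 1 or 2 of L/L or 2 or 3 of L/L, cre. There were 5 without L/L replicate 3 or L/L, cre replicate 1. The lower endothelial markers numbered 1 without replicate 2 of either group and with the replicate number as a block, 2 without L/L replicate 1 or L/L, cre replicate 3, and 7 without L/L, cre replicate 1. The higher fibroblast markers numbered 3 with no filter and without L/L, cre replicate 1 or 3. The higher erythroid markers numbered 0 without replicate 1 or 2 of L/L or replicate 2 or 3 of L/L, cre and in a robust fit, 2 without L/L replicate 3, 3 with the block and 5 with no filter. With library size alone 3 cardiomyocyte markers were lower, 0 endothelial markers were lower and 3 higher, 2 smooth muscle and pericyte markers were lower and 2 higher, and 9 fibroblast, 8 macrophage and 7 erythroid markers were higher. The cardiomyocyte, endothelial and smooth muscle medians then turned positive, at 0.14, 0.38 and 0.27, each under the 0.68 of all genes. With TMM the cardiomyocyte markers ranged from -1.80 (Ckm) to -0.27 (Tnnt2) on the log2 scale. Ttn, not called at -0.31, made up most of their sum, at 43850 CPM in L/L, cre and 54475 CPM in L/L hearts on average. In whole hearts, fewer cells of a type, less RNA per cell and changes of single genes within the cells cannot be told apart. The part of these shifts in the values below was not tested.

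Elac2 (ENSMUSG00000020549.14, chromosome 11, 64979038 to 65002069, plus strand, mm10) encodes the long RNase Z and is the gene that was targeted. It had 101, 97 and 81 counts in the L/L, cre libraries, against 200, 126 and 112 counts in the L/L libraries. These are 5.36, 5.63 and 6.52 CPM in L/L, cre and 15.0, 14.0 and 13.0 CPM in L/L hearts. The groups were far apart, and the spread within each was small beside the gap. The gene fell to 41.4% of the L/L level (log2 fold change -1.27, SE 0.15, 95% interval -1.60 to -0.94, edgeR adjusted p = 2.12e-04). It was called lower under each alternative tried, at -1.35 to -1.21 with 1 library left out and at -0.59 with library size alone (edgeR adjusted p = 0.0281). In the ranking of all tested genes, 659 had a more negative fold change than Elac2, or 4.61%.

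Counts cover the whole gene, so the remaining reads can come from exons that were not removed and from cells without cre. The longest annotated Elac2 transcript has 24 exons over 3329 bases. Its longest exon holds 32.2% of that length, the next longest 7.24%, and the median exon 2.90%. Which exon was flanked by loxP is not given in the labels. The gene shares 31 exonic bases with Arhgap44 on the opposite strand, which was itself higher in the L/L, cre hearts (log2 fold change 0.96, edgeR adjusted p = 2.52e-04). The strand setting of the counting is not stated. The 250 bases before the RefSeq start of Elac2, on the plus strand of GRCm38 at chr11:64978785-64979034, are printed as the promoter of the targeted gene, which lies before the first annotated exon.
Elac2: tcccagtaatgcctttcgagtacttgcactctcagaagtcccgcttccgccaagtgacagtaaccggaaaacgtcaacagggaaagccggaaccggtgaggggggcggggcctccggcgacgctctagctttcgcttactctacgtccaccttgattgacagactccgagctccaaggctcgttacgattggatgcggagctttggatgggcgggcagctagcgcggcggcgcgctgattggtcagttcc

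**Figure D1:**
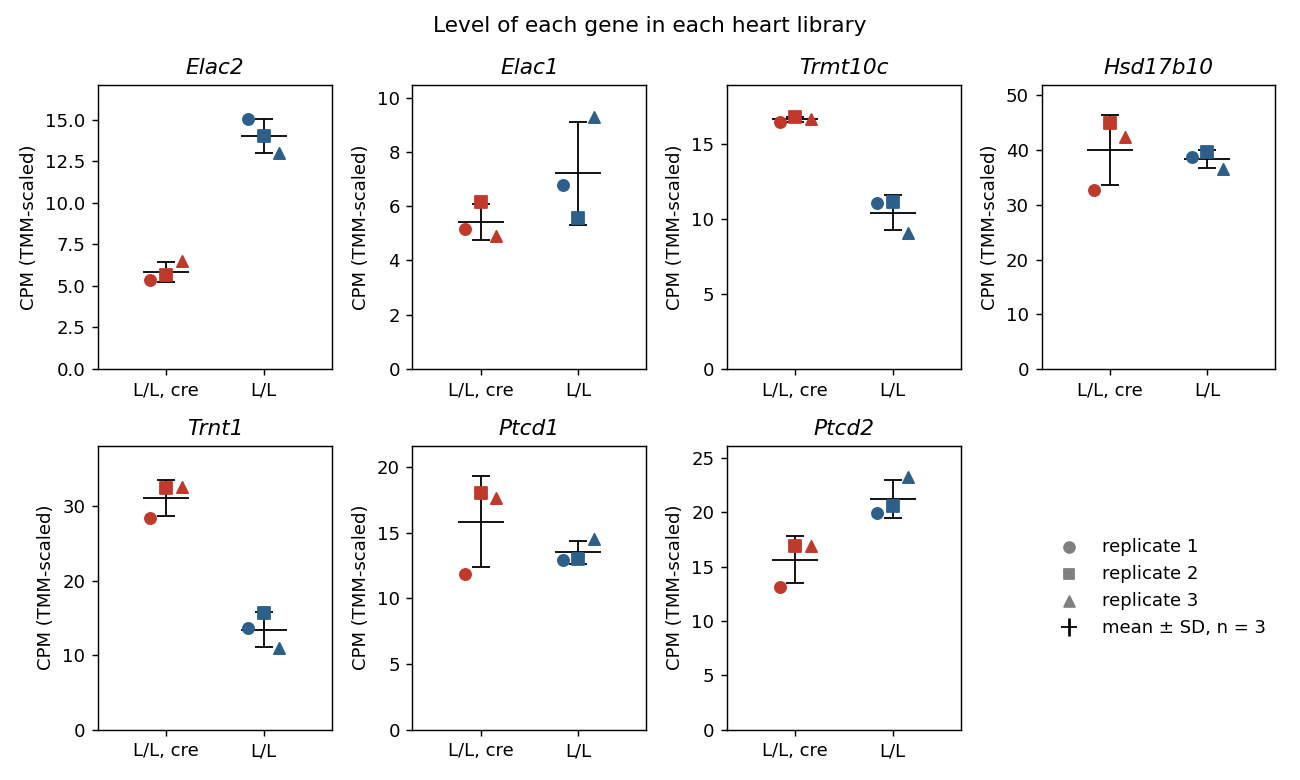
Level of each of the 7 genes in each library, in CPM on TMM-scaled library sizes, with L/L, cre on the left and L/L on the right of each panel; points are libraries, and bars are the mean and SD of 3. Elac2 and Ptcd2 are lower in each L/L, cre library than in any L/L library, Trmt10c and Trnt1 are higher, and the other 3 overlap. Ptcd2 is higher on average in L/L, cre hearts with library size alone.

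Elac1 (ENSMUSG00000036941.2, chromosome 18, 73735038 to 73754479, minus strand) encodes the short, cytosolic RNase Z, which in human cells repairs the ends of transfer RNAs after cleavage on stalled ribosomes. It had 97, 106 and 61 counts in the L/L, cre libraries and 90, 50 and 80 counts in the L/L libraries. Its levels were 5.15, 6.15 and 4.91 CPM in L/L, cre hearts, against 6.77, 5.56 and 9.29 CPM in L/L hearts. The groups overlapped, and L/L replicate 3 was the highest library. The value of Elac1 was -0.41 (SE 0.21, 95% interval -0.88 to 0.07, edgeR adjusted p = 0.161). A rise of more than 1.05-fold lay outside this interval, which holds for TMM scaling only. The value was -0.19 without L/L replicate 3 (edgeR adjusted p = 0.515) and 0.29 with library size alone (edgeR adjusted p = 0.308).

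Relative to Elac1 in the same library, Elac2 was lower in the L/L, cre hearts. This ratio does not depend on how libraries are scaled. In counts per kilobase of exons, Elac2 stood at 1.49, 1.31 and 1.90 times Elac1 in the L/L, cre libraries and at 3.18, 3.60 and 2.0 times Elac1 in the L/L libraries. The groups came close to each other, and Elac2 stayed above its paralog in all 6 libraries. The mean difference was -0.88 on the log2 scale (two-sided exact permutation p = 0.1, the smallest that 3 against 3 allows).

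The genes of the mitochondrial RNase P proteins differed in their calls. Trmt10c (ENSMUSG00000044763.8, chromosome 16, 56032609 to 56037819, minus strand) encodes the methyltransferase subunit, which also methylates position 9 of mitochondrial transfer RNAs. It had 311, 290 and 207 counts in the L/L, cre libraries, against 147, 100 and 78 counts in the L/L libraries. Its levels were 16.5, 16.8 and 16.7 CPM in L/L, cre hearts and 11.1, 11.1 and 9.06 CPM in L/L hearts. The L/L, cre libraries were nearly level, and each was above all L/L libraries. Trmt10c rose 1.60-fold (log2 fold change 0.67, SE 0.14, 95% interval 0.37 to 0.98, edgeR adjusted p = 3.93e-03). The call was kept under each alternative tried with a threshold of 0.05, and the value was 1.36 with library size alone. The 217 bases before its outermost annotated exon, on the minus strand of GRCm38 at chr16:56037820-56038036, are printed because this is the RNase P subunit gene that rose in all of these fits.
Trmt10c: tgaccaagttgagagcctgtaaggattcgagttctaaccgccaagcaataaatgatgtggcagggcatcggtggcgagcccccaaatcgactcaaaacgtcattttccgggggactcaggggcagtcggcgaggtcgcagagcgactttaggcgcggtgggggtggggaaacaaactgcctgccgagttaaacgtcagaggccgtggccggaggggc

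Hsd17b10 (ENSMUSG00000025260.10, chromosome X, 152001845 to 152004442, plus strand) encodes the dehydrogenase subunit, which holds the methyltransferase in place and also oxidises a step of isoleucine breakdown. It had 618, 775 and 527 counts in the L/L, cre libraries and 516, 357 and 314 counts in the L/L libraries. Its levels were 32.8, 45.0 and 42.4 CPM in L/L, cre hearts, against 38.8, 39.7 and 36.5 CPM in L/L hearts. The L/L, cre libraries lay on both sides of the L/L libraries. Hsd17b10 was at 0.06 on the log2 scale (SE 0.13, edgeR adjusted p = 0.743), with a 95% interval of -0.24 to 0.36, or 0.849-fold to 1.29-fold. The sign turned without L/L, cre replicate 2 (-0.03, edgeR adjusted p = 0.911), and the gene was called higher with library size alone (0.75, edgeR adjusted p = 2.25e-03). Ribc1, 139 bases away on the opposite strand, had too few reads to be tested.

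The nuclease subunit, PRORP, is encoded by Prorp, listed in the count tables under its older name 1110008L16Rik and named here for its role and outside the rule for named genes. It averaged 6.27 CPM in L/L, cre hearts and 3.95 CPM in L/L hearts. Its rise was at the edge of the threshold (log2 fold change 0.64, SE 0.22, edgeR adjusted p = 0.0494). With 1 library left out its adjusted p lay between 0.0278 and 0.156, and the call was lost without L/L replicate 2 (0.54, edgeR adjusted p = 0.156) or 3 (0.56, edgeR adjusted p = 0.144) and without L/L, cre replicate 1 (0.59, edgeR adjusted p = 0.0777) or 3 (0.54, edgeR adjusted p = 0.127). The call of Prorp was also lost with RLE scaling (edgeR adjusted p = 0.0507), the filter of 50 counts in 3 libraries (edgeR adjusted p = 0.0533), DESeq2 (adjusted p = 0.0739), limma-voom (adjusted p = 0.0603) and the replicate block (edgeR adjusted p = 0.0562), and Prorp was not called in the authors' deposited table (adjusted p = 0.0773).

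The ratio of Trmt10c to Hsd17b10 was higher in each L/L, cre library than in any L/L library. In counts per kilobase of exons, Trmt10c stood at 0.218, 0.162 and 0.170 of Hsd17b10 in the L/L, cre libraries and at 0.123, 0.121 and 0.107 in the L/L libraries. The L/L, cre libraries were more spread than the L/L libraries, with replicate 1 the highest (mean difference 0.63 on the log2 scale, two-sided exact permutation p = 0.1, the smallest possible). The ratio of Trmt10c to Prorp, at 3.75, 4.89 and 3.45 in L/L, cre and 3.25, 4.94 and 3.86 in L/L hearts, overlapped (difference 0.01, two-sided exact permutation p = 1.0). The ratio of Hsd17b10 to Prorp also overlapped, at 17.2, 30.2 and 20.3 in L/L, cre and 26.4, 40.8 and 35.9 in L/L hearts (difference -0.62 on the log2 scale, two-sided exact permutation p = 0.2). Hsd17b10 had the highest level per kilobase of the 7 genes in both groups, at 30.9 ± 4.96 in L/L, cre and 29.5 ± 1.28 CPM per kilobase in L/L hearts (SD, n = 3 each).

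Trnt1 (ENSMUSG00000013736.16, chromosome 6, 106769120 to 106782474, plus strand) encodes the CCA-adding enzyme of both the nucleus and mitochondria, which acts on the 3' end that RNase Z has cut. It had 534, 559 and 404 counts in the L/L, cre libraries, against 182, 141 and 94 counts in the L/L libraries. Its levels were 28.3, 32.5 and 32.5 CPM in L/L, cre and 13.7, 15.7 and 10.9 CPM in L/L hearts. No library of one group came near the other group. Trnt1 rose 2.31-fold (log2 fold change 1.21, SE 0.15, 95% interval 0.88 to 1.54, edgeR adjusted p = 2.71e-04), and it was called higher under each alternative tried, from 1.09 to 1.33 with 1 library left out and at 1.90 with library size alone. In the ranking of all tested genes, 658 had a larger fold change than Trnt1, or 4.60%.

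Trnt1 shares 144 exonic bases with Crbn on the opposite strand, out of 4413 bases of Trnt1 exons. Crbn was at 22.9, 32.5 and 28.8 CPM in L/L, cre hearts and at 23.5, 23.3 and 19.2 CPM in L/L hearts, and did not pass the test (log2 fold change 0.35, edgeR adjusted p = 0.0998). Relative to Trnt1 in the same library, Elac2 was lower in the L/L, cre hearts. In counts per kilobase of exons, Elac2 stood at 0.240, 0.220 and 0.254 of Trnt1 in the L/L, cre libraries and at 1.39, 1.13 and 1.51 of Trnt1 in the L/L libraries. Elac2 was thus below Trnt1 in each L/L, cre library and above it in each L/L library, a mean difference of -2.49 on the log2 scale (two-sided exact permutation p = 0.1, the smallest possible). Over the longest transcript in place of all exons, Trnt1 averaged 13.6 and Elac2 1.75 CPM per kilobase in L/L, cre hearts, and Trnt1 5.88 and Elac2 4.21 CPM per kilobase in L/L hearts. The order of these genes in L/L hearts thus depends on the length used. The difference between the groups cannot depend on it, because a gene's length is the same in all libraries and cancels.

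**Figure D2:**
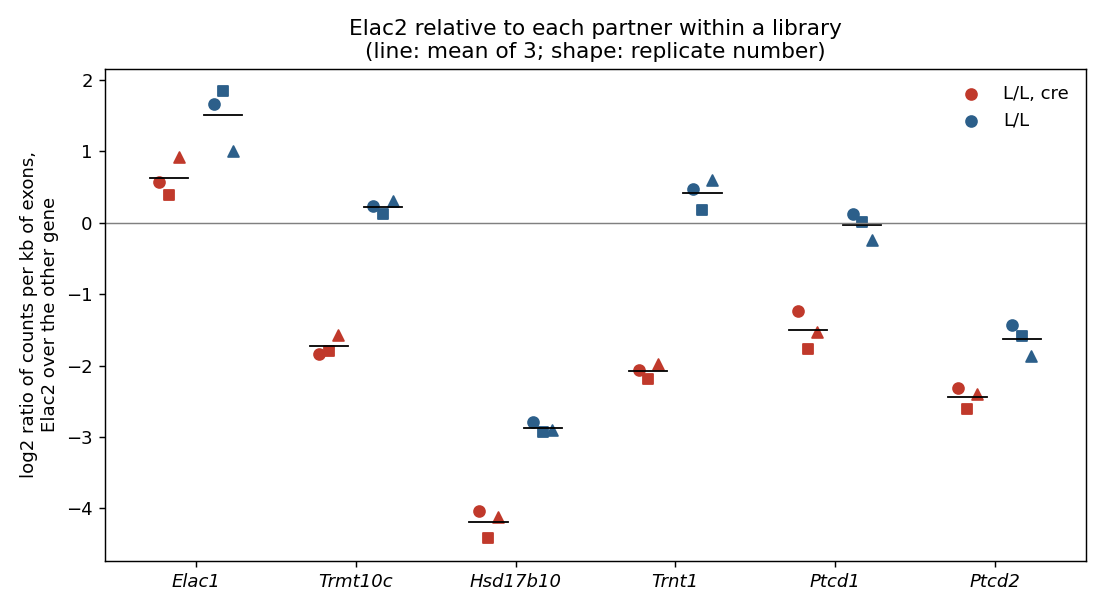
Log2 ratio of Elac2 to each other gene in the same library, in counts per kilobase of exons, with L/L, cre on the left and L/L on the right for each gene; points are libraries and lines are means of 3. For each of the 6 genes the L/L, cre ratios lie below all L/L ratios, by a mean of 0.82 for Ptcd2 to 2.49 for Trnt1 on the log2 scale. All 6 ratios share Elac2, and 95.4% of all tested genes had a higher log2 fold change than Elac2. A lower ratio is therefore not particular to these 6 genes.

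PTCD1 and PTCD2 belong to the pentatricopeptide repeat proteins, which bind mitochondrial RNA. PTCD1 has been tied to the 3' ends of mitochondrial transfer RNAs and to the 16S ribosomal RNA, and PTCD2 to the processing of the cytochrome b transcript in mice. Ptcd1 (ENSMUSG00000029624.10, chromosome 5, 145147514 to 145167108, minus strand) had 223, 310 and 219 counts in the L/L, cre libraries and 172, 117 and 125 counts in the L/L libraries. Its levels were 11.8, 18.0 and 17.6 CPM in L/L, cre hearts, against 12.9, 13.0 and 14.5 CPM in L/L hearts. L/L, cre replicate 1 lay below all L/L libraries and the other two above them.

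Ptcd1 was at 0.23 on the log2 scale (SE 0.18, 95% interval -0.17 to 0.62, edgeR adjusted p = 0.341). Without L/L, cre replicate 1 it was called higher, at 0.41 (edgeR adjusted p = 0.0275), and with library size alone at 0.92 (edgeR adjusted p = 8.78e-04). It shares 244 of 3271 exonic bases with Bud31 on the opposite strand, which was higher in the L/L, cre hearts (log2 fold change 0.93, edgeR adjusted p = 1.16e-03). The part of those bases in the counts of Ptcd1 was not tested. Cpsf4, 104 bases from Ptcd1 and read the other way, did not pass the test (log2 fold change 0.38, edgeR adjusted p = 0.0929).

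Ptcd2 (ENSMUSG00000021650.6, chromosome 13, 99319647 to 99344705, minus strand) had 247, 291 and 210 counts in the L/L, cre libraries and 265, 185 and 200 counts in the L/L libraries. Its levels were 13.1, 16.9 and 16.9 CPM in L/L, cre hearts, against 19.9, 20.6 and 23.2 CPM in L/L hearts. The groups did not overlap, although the gap between them was no wider than the spread within each. Ptcd2 fell with TMM scaling to 73.6% of the L/L level (log2 fold change -0.44, SE 0.14, 95% interval -0.76 to -0.12, edgeR adjusted p = 0.0363) and was at 0.26 with library size alone (edgeR adjusted p = 0.274). This call was weak. It was kept without L/L, cre replicate 3 (-0.50, edgeR adjusted p = 0.0445). It was lost without L/L replicate 1 (-0.48, edgeR adjusted p = 0.054), 2 (-0.46, edgeR adjusted p = 0.079) or 3 (-0.37, edgeR adjusted p = 0.105), and without L/L, cre replicate 1 (-0.32, edgeR adjusted p = 0.0613) or 2 (-0.50, edgeR adjusted p = 0.058). The authors' deposited table gave Ptcd2 a log2 fold change of -0.41 and an adjusted p of 0.0925, where 27.6% of the genes with an adjusted p were called. For the other 6 genes the authors' deposited table made the same calls in the same direction.

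Ptcd2 starts 80 bases from Mrps27, a mitochondrial ribosomal protein gene that is read the other way. Mrps27 was at 17.4, 19.0 and 17.3 CPM in L/L, cre hearts and at 25.1, 21.2 and 26.7 CPM in L/L hearts. Like its neighbour, it was lower in each L/L, cre library than in any L/L library (log2 fold change -0.45, SE 0.13, edgeR adjusted p = 0.0218), and like it was positive with library size alone (0.25, edgeR adjusted p = 0.301). The call of Mrps27 was lost without L/L replicate 1 (-0.42, edgeR adjusted p = 0.0668) or 3 (-0.37, edgeR adjusted p = 0.0746) and without L/L, cre replicate 3 (-0.42, edgeR adjusted p = 0.0606), and with the replicate number as a block (-0.44, edgeR adjusted p = 0.0603). The authors' deposited table did not call Mrps27 either (-0.41, adjusted p = 0.0672). The interval that separates these genes, at chr13:99344706-99344785 on the minus strand of GRCm38, is printed because they stood in the same direction under each of these scalings, with the letters of a motif of ETS factors (CCGGAAG) in capitals.
Ptcd2 to Mrps27: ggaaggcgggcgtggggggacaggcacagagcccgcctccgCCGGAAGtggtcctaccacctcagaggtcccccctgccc

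The RefSeq promoter table (GRCm38) held windows of 300 bases for 5 of the 7 genes and for Prorp. On both strands, CCGGAAG was found in 1 place each in the windows of Ptcd2 and Trmt10c, for Trmt10c outside the run printed above, and in 8.86% of all 32851 windows. None of the 6 windows held the palindromic NRF1 motif, the E-box CACGTG or the ATF4 response element TGATGNAA, which were in 0.971%, 7.15% and 3.97% of all windows. With 1 match in a window, no match overlapped another. A match describes letters only.

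**Figure D3:**
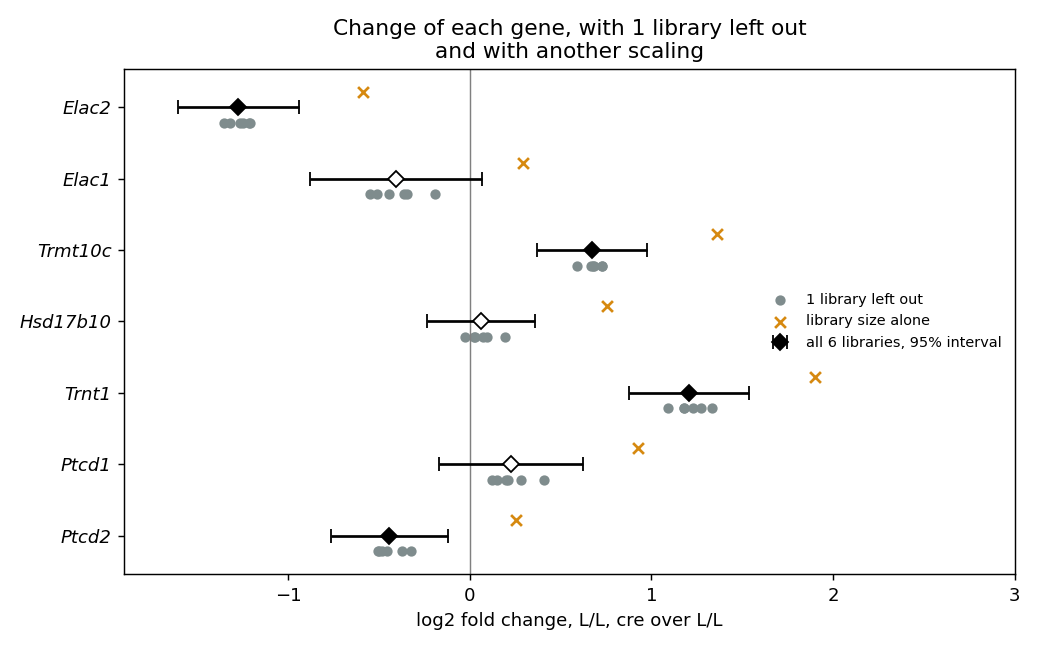
Log2 fold change of L/L, cre over L/L for each gene: black diamonds with 95% intervals from all 6 libraries (filled where the adjusted p is under 0.05), grey points with 1 library left out, and crosses with library size alone. Elac2 stays below 0 and Trmt10c and Trnt1 above 0 throughout, while Elac1 and Ptcd2 cross to positive values with library size alone.

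Per kilobase of exons, the order of the 7 genes differed between the groups. In the L/L, cre hearts it was Hsd17b10, Ptcd2, Trnt1, Trmt10c, Ptcd1, Elac2 and Elac1, and the ranges of Trmt10c and Ptcd1 overlapped. In the L/L hearts it was Hsd17b10, Ptcd2, Ptcd1, Elac2, Trmt10c, Trnt1 and Elac1, where the ranges of Ptcd1 and Elac2 overlapped, as did those of Trmt10c and Trnt1. Elac2 averaged 1.68 ± 0.175 CPM per kilobase in L/L, cre and 4.03 ± 0.293 in L/L hearts, and Trnt1 7.05 ± 0.544 CPM per kilobase in L/L, cre and 3.04 ± 0.541 in L/L hearts (SD, n = 3 each). All other neighbours in either order had separate ranges. The place of Trnt1 depends on the length used: over the longest transcript its mean was above that of Ptcd2 in L/L, cre hearts (13.6 against 9.18 CPM per kilobase) and above those of Ptcd1 (4.37), Elac2 (4.21) and Trmt10c (3.47) in L/L hearts (5.88).

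Elac2 had the pattern most like it in Ctnna3, a catenin of the intercalated disc, among 9589 genes with a mean of at least 5 CPM (Pearson r 0.9995 of log2 CPM over the 6 libraries). Ctnna3 was at 29.1, 31.2 and 36.6 CPM in L/L, cre hearts and at 83.1, 78.9 and 70.5 CPM in L/L hearts. Sned1, Sec31b, Tmem170b and Slc26a6 followed, with r of 0.9974 to 0.9978. The genes most like Trnt1 were Trim11, Cebpg, Ttc9c, Pgrmc1 and Sf3b5, with r of 0.9969 to 0.9988. Cebpg, a bZIP transcription factor gene, was at 49.9, 56.0 and 58.9 CPM in L/L, cre hearts and at 24.6, 26.7 and 19.7 CPM in L/L hearts. These values describe 6 libraries that genotype splits into separate groups, and r was over 0.95 for 526 genes with Elac2 and for 725 genes with Trnt1.

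Other genes of mitochondrial RNA ends, stability and decay were called in both directions, at shares near those of all tested genes. Of 18 such genes, 3 were higher and 4 lower, beside 18.7% higher and 17.8% lower of all tested genes. Their median log2 fold change was 0.08, against -0.01 for all tested genes. This list and those below were chosen with earlier results of these data known, so their counts are descriptions only. Rexo2, an exonuclease that clears very short RNAs, rose by 0.84 (SE 0.13, edgeR adjusted p = 1.07e-03), at 33.3 CPM in L/L, cre and 18.6 CPM in L/L hearts. Pde12, which removes adenosines from the 3' ends of mitochondrial RNAs, rose by 0.74 (edgeR adjusted p = 4.79e-03), and Fastk, founder of a family that matures mitochondrial RNAs without a transfer RNA at their end, was lower by TMM (-0.57, edgeR adjusted p = 4.74e-03) and at 0.13 with library size alone. Lactb2, an endoribonuclease of the mitochondrial matrix, was also lower (-0.49, edgeR adjusted p = 0.0224), a call lost with library size alone (0.20), without L/L replicate 1 (-0.47, edgeR adjusted p = 0.0629) or 3 (-0.39, edgeR adjusted p = 0.0786) and without L/L, cre replicate 3 (-0.48, edgeR adjusted p = 0.0536). The lower genes numbered 2 without L/L replicate 1, 2 or 3 or L/L, cre replicate 3, and 0 with library size alone, when 10 were higher.

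The RNase P of the nucleus, which is built on an RNA and cuts the 5' ends of nuclear precursors, had higher but no lower genes. Of 12 listed genes 11 were tested, of which 5 were higher and 0 lower, with a median of 0.58. Of all tested genes, 18.7% were higher and 17.8% lower. Pop4 was at 15.98 CPM in L/L, cre and 6.82 CPM in L/L hearts (log2 fold change 1.22, SE 0.15, edgeR adjusted p = 2.71e-04), and Rpp38 at 3.65 CPM in L/L, cre and 1.22 CPM in L/L hearts (1.55, SE 0.29, edgeR adjusted p = 2.78e-03). Rpp30, another protein subunit, rose by 0.80 (edgeR adjusted p = 0.0105), a call lost without L/L, cre replicate 2 (0.65, edgeR adjusted p = 0.0502). Rpph1, the RNA component, rose by 0.87 (edgeR adjusted p = 0.0144), a call lost without L/L replicate 2 (0.82, edgeR adjusted p = 0.0633), when 3 genes of the list were called.

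Of 11 genes for other steps of precursor maturation, 8 were higher and 0 lower (median 0.47), beside 18.7% higher and 17.8% lower of all tested genes. Xpot, the exportin that carries mature transfer RNAs to the cytosol, was at 110 CPM in L/L, cre and 31.8 CPM in L/L hearts (log2 fold change 1.79, SE 0.11, edgeR adjusted p = 6.18e-06). Tsen54, of the intron-splicing endonuclease, rose by 0.98 (edgeR adjusted p = 2.47e-03), and Thg1l, which adds the extra 5' base of histidine transfer RNA, by 0.97 (edgeR adjusted p = 4.41e-03). Ssb encodes the La protein, which binds the uridine-rich 3' trailer before RNase Z cuts, and rose by 0.46 (edgeR adjusted p = 7.80e-03). These 4 kept their call under each alternative tried.

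The paralogs of Trmt10c, whose products methylate nuclear-encoded transfer RNAs, were low in both groups. Trmt10a rose by 1.03 (SE 0.23, edgeR adjusted p = 5.99e-03), at 3.81 CPM in L/L, cre and 1.89 CPM in L/L hearts. Trmt10b was at 0.74 (edgeR adjusted p = 0.0566) and was called higher without L/L replicate 3 and without L/L, cre replicate 1.

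RNase Z is a metallo-β-lactamase fold enzyme. Of the 8 other listed genes of this fold, 2 were higher and 2 lower (median 0.20), beside 18.7% higher and 17.8% lower of all tested genes. Ints11, the nuclease of the Integrator complex, rose by 0.65 (edgeR adjusted p = 9.33e-03). Cpsf2, an inactive partner of the messenger RNA cleavage nuclease, rose by 0.44 (edgeR adjusted p = 0.0125), a call lost without L/L replicate 2 (0.40, edgeR adjusted p = 0.0588) or L/L, cre replicate 2 (0.41, edgeR adjusted p = 0.0541). Dclre1a, a DNA repair nuclease, was lower by TMM (-0.58, edgeR adjusted p = 0.0200), a call lost with library size alone (0.11) and without L/L replicate 1 (-0.57, edgeR adjusted p = 0.0554) or 3 (-0.47, edgeR adjusted p = 0.0771) or L/L, cre replicate 2 (-0.60, edgeR adjusted p = 0.0569). The lower ones numbered 0 without L/L replicate 1 or 3 and 1 without L/L, cre replicate 2 or 3. The higher ones numbered 1 without replicate 2 of either group.

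Hsd17b10, whose dehydrogenase works in isoleucine breakdown, did not pass the test, while most other genes of that pathway were lower with TMM scaling. Of 8 such genes, 7 were lower and 0 higher, beside 17.8% lower and 18.7% higher of all tested genes. The list had a median log2 fold change of -0.66, against -0.01 for all tested genes. When only library size was used, the list stood at 0.03 and all tested genes at 0.68, and 0 of the 8 were lower. Acat1, the thiolase that acts just after HSD17B10, was at 124 CPM in L/L, cre and 251 CPM in L/L hearts (log2 fold change -1.02, SE 0.18, edgeR adjusted p = 1.87e-03). Dbt and Dld, of the branched-chain dehydrogenase complex, were at -0.87 and -0.74 (edgeR adjusted p = 9.35e-04 and 1.05e-03), and Acadsb, the acyl-CoA dehydrogenase of the pathway, at -0.62 (edgeR adjusted p = 3.54e-03). These 4 genes had the smallest adjusted p of the list. The interval of Hsd17b10, -0.24 to 0.36, lay above each of their 4 values, although the difference was not tested.

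Malat1 and the long form of Neat1 are nuclear RNAs whose 3' ends are cut by RNase P. RNase Z then cuts the small transfer RNA-like piece. Malat1 averaged 7017 CPM in L/L, cre and 11244 CPM in L/L hearts (log2 fold change -0.68, SE 0.24, edgeR adjusted p = 0.0488). The call was lost without L/L replicate 1 (-0.77, edgeR adjusted p = 0.0529), 2 (-0.80, edgeR adjusted p = 0.0658) or 3 (-0.42, edgeR adjusted p = 0.181), without L/L, cre replicate 2 (-0.60, edgeR adjusted p = 0.160) or 3 (-0.68, edgeR adjusted p = 0.0898), and with library size alone, where the value was 0.04. Neat1, counted as 1 gene for all its forms, was at 0.17 (edgeR adjusted p = 0.556).

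**Figure D4:**
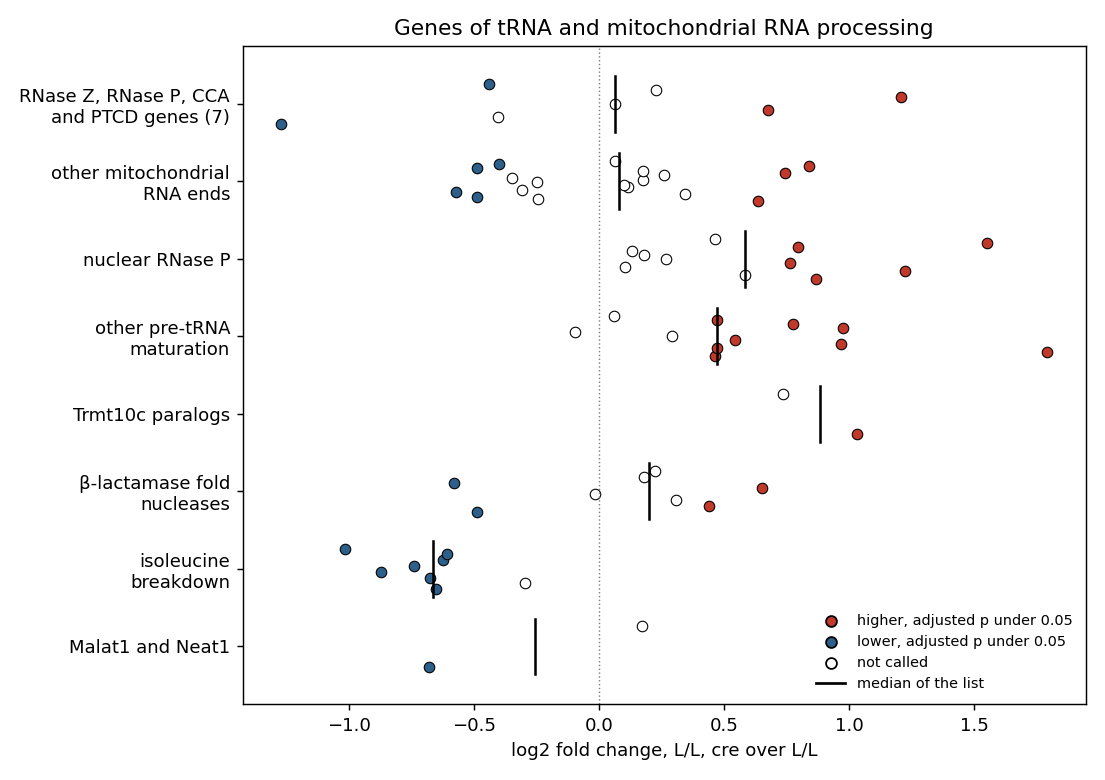
Log2 fold change of L/L, cre over L/L for the 7 genes and for related lists, 1 point per tested gene; red points were called higher, blue points lower and white points not called, and vertical lines are list medians. Nuclear RNase P and other precursor maturation genes lie mostly above 0, with 5 and 8 of 11 called higher, and isoleucine breakdown below 0, with 7 of 8 lower with TMM and 0 with library size alone. Of all tested genes, 18.7% were higher and 17.8% lower with TMM. The lists were chosen with earlier results of these data known, so the counts are descriptions only.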

How the data were processed

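For each mouse the authors deposited unnormalised gene-level read counts (whole numbers), and for the comparison a table with log2 fold changes, standard errors and p-values. The submitters' processing notes name the build mm10 and the programs DESeq2 1.16.1, featureCounts 1.5.1, SAMtools 1.5 and HISAT2 2.0.5, without roles or options. Groups and replicate numbers came from the sample titles.

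L/L, cre was tested against L/L in R 4.3.3 by edgeR 4.0.16 (glmQLFit, glmQLFTest; quasi-likelihood) on these counts, with TMM scaling, filterByExpr at its default minimum count of 10, no block and Benjamini-Hochberg adjustment over all tested genes. SE was the size of the log2 fold change divided by the square root of F. Ratios within a library used exact permutation tests (SciPy 1.17.1). DESeq2 1.42.0 and limma-voom (limma 3.58.1) were alternatives. Gene positions and exon lengths came from GENCODE M21, on the build of mm10, and promoter windows from RefSeq. The test was tried on simulated data in which few genes changed and the groups otherwise had the same composition. That setting differs from these libraries, so the effect of scaling was not probed by it. Levels are CPM; total counts per library are given with the groups, and intervals on fold changes are at 95%.

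Members and lists were chosen with earlier results of these data known. By the rule for named genes, each list gives up to 4 called genes with the smallest adjusted p, or 1 where none is called. Neighbours within 1 kb were added for their position. Between libraries of 1 group, chi-square over its degrees of freedom was 8.93 or more, so none was a repeat of another and each was 1 replicate. Nothing in the labels says more of how the mice were raised. The edgeR p-values set the difference between the groups beside the spread between mice, estimated with the help of all tested genes. Exact permutation p-values cannot fall under 0.1 with 3 against 3.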

Additional observations from a re-analysis of the deposited data

How the results depend on the processing

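With library size alone, 8093 genes were higher and 552 lower, Elac1, Ptcd2, Hsd17b10 and Ptcd1 were at 0.29, 0.26, 0.75 and 0.92, the last 2 called higher, and of the 7 genes 4 were higher and 1 lower. By this scaling the higher and lower genes numbered 10 and 0 for mitochondrial RNA ends, 11 and 0 for nuclear RNase P, 6 and 0 for β-lactamase fold nucleases, 2 and 0 for the paralogs of Trmt10c and 1 and 0 for Malat1 and Neat1, and 0 genes of isoleucine breakdown were lower. Ptcd2 lost its call with no filter (-0.39), with DESeq2 (-0.45), in the authors' deposited table (-0.41) and at an adjusted p under 0.01 (-0.44), each leaving 1 of the 7 genes lower. At an adjusted p under 0.01, 1591 genes were higher and 1415 lower, with 1 lower for mitochondrial RNA ends, 2 higher for nuclear RNase P, 1 higher and 0 lower for the fold nucleases and 0 lower of Malat1 and Neat1. The authors' deposited table had 2 lower for mitochondrial RNA ends and 0 lower for the fold nucleases. Both paralogs of Trmt10c were higher (2) with no filter and with limma-voom, and 0 with a filter of 50 counts in 3 libraries, which left 1 of them to test and removed Trmt10a. TMM without mitochondrial-encoded features left 0 of Malat1 and Neat1 lower. Leaving out 1 library put Hsd17b10 between -0.03 (-0.0281, without L/L, cre replicate 2) and 0.19, Ptcd1 between 0.12 and 0.41 and Ptcd2 between -0.50 and -0.32. It gave 2 to 3 of the 7 genes higher and 1 to 2 lower. The lists gave 2 to 5 lower for mitochondrial RNA ends and 3 to 5 higher for nuclear RNase P. The fold nucleases gave 1 to 2 higher and 0 to 2 lower. There were 1 to 2 higher paralogs and 0 to 1 lower of Malat1 and Neat1. Of all tested genes, 1899 to 2903 were higher and 1795 to 2934 lower in the same fits. These fits had fewer samples; what caused the remaining shifts was not tested. The replicate number as a block put Ptcd2 at -0.45 (edgeR adjusted p = 0.0503), leaving 1 of the 7 genes lower, with 1 lower for mitochondrial RNA ends, 1 lower for the fold nucleases and 0 lower of Malat1 and Neat1. Whether numbers pair the mice is not given, and libraries that share a number had deviations with correlations of -0.198, 0.0851 and -0.0871, with L/L replicate 2 alone of the L/L libraries closest to its own number. Elac2, Trmt10c and Trnt1 kept their direction and call in all of these fits. The difference between the groups in each ratio of Elac2 to another gene stayed negative with 1 library left out. Use of the longest transcript could not alter this difference, because a gene's length is the same in all libraries and cancels. Elac1 and Elac2 rest on 50 to 106 and 81 to 200 counts a library, and Rpp38 and Trmt10a on 8 to 58 and 17 to 76.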
